A study of Homo sapiens with 6 samples.

Results

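The genes described here form the self-renewal programme of leukaemias with a rearranged KMT2A gene (also called MLL): HOXA9, HOXA10, MEIS1, PBX3, MYB, MYC, RUNX1, FLT3, MEF2C and CDK6. The list was taken as given, and each gene was found by its symbol in a table of 26347 gene rows. All 10 had a row, 9 of them held counts, and MEIS1 held 0 counts in every library. RNA was sequenced from THP-1, a long-established line of human monocytic leukaemia cells grown in RPMI with 10% FBS. The cells had been transfected either with a negative control microRNA mimic (3 libraries) or with a miR-125a-5p mimic (3 libraries), and RNA was taken 24 h later. No other treatment or genotype separates the groups, and no untransfected cells were analysed here. Although the series is titled as a study of macrophages, the labels describe monocytic cells and give no differentiation step.

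THP-1 cells carry a fusion of KMT2A with MLLT3. In leukaemias of this kind the fusion protein recruits the histone methyltransferase DOT1L and elongation factors to HOXA genes such as HOXA9 and to MEIS1, and keeps them transcribed. HOXA9 and HOXA10 are homeodomain transcription factors that bind DNA with the TALE homeodomain cofactors MEIS1 and PBX3, while MYB, MYC, RUNX1 and MEF2C are further transcription factors of immature blood cells, FLT3 is a receptor tyrosine kinase and CDK6 a cyclin-dependent kinase. The miR-125 family is abundant in blood stem cells, where forced expression can expand immature cells.

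A microRNA represses messenger RNAs that pair with its seed, bases 2 to 8. The mature miR-125a-5p, 24 bases long in RefSeq (GRCh38.p14, chromosome 19, 51693268 to 51693291, plus strand), is shown with the seed in capitals.
hsa-miR-125a-5p: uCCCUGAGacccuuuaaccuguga
The longest annotated 3′ untranslated region (3′ UTR) of each gene in GENCODE 29 (GRCh38) was searched for CTCAGGGA (8mer), CTCAGGG (7mer-m8), TCAGGGA (7mer-A1) and the core TCAGGG (6mer), on the transcribed strand, each site counted once as its longest class. Of the 10 genes, 5 held 1 match each and 5 held none. The 5 matches are printed below, 5′ to 3′, with the matching bases in capitals, because they are the places where the mimic could pair.
MEF2C, 8mer: taaaaggcattCTCAGGGAagtctacaaag
FLT3, 7mer-m8: gccttcccagaCTCAGGGccagtcagaagt
HOXA10, 6mer: tgctgtgtttaaTCAGGGgatacaggcccc
PBX3, 6mer: ttaaaagaaaaaTCAGGGttgcacttgcaa
CDK6, 6mer: gctattttcataTCAGGGtacagacttata

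The MEF2C site lies on chromosome 5 at 88717396 to 88717403 (minus strand, exon 11 of 11), at base 5201 of a 3′ UTR of 5487 bases. It was present in only 1 of the 20 annotated 3′ UTRs of MEF2C, the longest. The FLT3 site lies on chromosome 13 at 28003332 to 28003338 (minus strand, exon 24 of 24) in the 1 annotated 3′ UTR. The core matches lie at 27171412 to 27171417 on chromosome 7 for HOXA10 (3 of 3 annotated 3′ UTRs) and at 125966956 to 125966961 on chromosome 9 for PBX3 (4 of 4). That of CDK6 lies on chromosome 7 at 92606088 to 92606093, at base 9047 of a 3′ UTR of 10219 bases. No annotated 3′ UTR of HOXA9 (2 searched), MYB (10), MYC (4), RUNX1 (5) or MEIS1 (5) held the core. Among 12787 tested genes with a searched 3′ UTR, 6.01% had an 8mer as their best match, 10.3% a 7mer-m8, 7.95% a 7mer-A1, 13.0% only a 6mer and 62.7% none. A match is a stretch of letters and not a measured site.

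Library totals ran from 8256149 to 10257791 counts. Levels are given as CPM, a library's counts scaled to a common total with factors from the trimmed mean of M-values. The test was the quasi-likelihood test of edgeR over 14731 genes, with p-values adjusted by Benjamini-Hochberg. Over all genes 0 were called higher (0.00% of those tested; 397 had an unadjusted p under 0.05, and DESeq2 called 2) and 4 lower (0.0272%). Control library 1 stood apart on the first principal component, at -38.2 against 1.14 to 16.3 for the other 5. Printed fold changes and medians of gene lists whose sign turns on it are therefore also given without it, or named in the closing section. Counts of positive and negative fold changes are given for all 6 libraries only, and some genes in them turn sign without control library 1. Markers of the monocytic lineage were present: all 14 on that list were tested and none was called (4 positive and 10 negative fold changes), with summed levels of 2665 to 2821 CPM in control and 2596 to 2757 CPM in miR-125a-5p libraries. Their levels were uneven. CSF1R stood at 792 ± 53.5 CPM (SD, n = 3) in control libraries and CD68 at 727 ± 74.0 CPM. Far lower were CD14 at 18.1 ± 3.87, S100A8 at 5.68 ± 1.52, S100A9 at 4.61 ± 0.780 and MPO at 2.54 ± 2.16 CPM. The groups of 2 of the 14 did not overlap, CSF1R and FCGR1A, both below, as in 5.90% of all tested genes. An unadjusted p under 0.05 was found for 2 others of the 14, beside 5.92% of all tested genes, both with a positive fold change. LYZ, lysozyme, was at 384 ± 38.6 and 456 ± 61.01 CPM (log2 fold change 0.25, edgeR adjusted p = 0.739), and ITGAM, an integrin subunit of myeloid cells, at 222 ± 22.8 and 257 ± 24.3 CPM (0.21, adjusted p = 0.833). Markers of red cells (4 of 5 at 0 counts), epithelium (3 of 5 at 0) and T cells (summed level at most 5.004 CPM) were near 0. In the B cell list MS4A1 and CD79A held 2 counts each over all libraries, and nearly all of its summed 54.0 to 86.5 CPM in control and 45.0 to 62.7 CPM in miR-125a-5p libraries was the transcription factor PAX5. The PAX5 levels were 66.99 ± 16.5 and 47.3 ± 9.87 CPM (log2 fold change -0.51, unadjusted p 0.0034, edgeR adjusted p = 0.501), and PAX5 did not pass. The groups overlapped, and control library 1 was the highest, at 82.2 CPM. Without that library the log2 fold change was -0.33 (edgeR adjusted p = 0.740). The part of PAX5 in the results was not tested. In the fibroblast and endothelial list nearly all of the 282 to 338 CPM per library was PECAM1, which monocytic cells also express. Whether the libraries came from separate cultures is not stated, so the p-values cover the spread among these 6 libraries alone, and that spread may be technical. In bulk RNA, fewer cells of a kind and less RNA per cell cannot be told apart.

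None of the 9 tested leukaemia genes was called in either direction, against 0.0272% of all genes tested. Their log2 fold changes, miR-125a-5p over control, ran from -0.092 (RUNX1) to 0.21 (CDK6), with 5 positive and 4 negative. The median was 0.030, beside 0.0011 for all tested genes, and the median size was 0.074, beside 0.13. Of all tested genes, 68.6% had a fold change no larger in size than that of CDK6. The SEs of the 9 genes ran from 0.085 to 0.166, beside a median SE of 0.169 for all tested genes. These sizes are therefore set beside those of genes measured less precisely. The 95% intervals of the 9 genes spanned -0.41 to 0.38 at their widest, so a halving or doubling lies outside every one of them. One gene, CDK6, had an unadjusted p under 0.05, as did 5.92% of all tested genes, and it was also the one gene whose groups did not overlap, as in 11.2% of all tested genes.

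**Figure D1:**
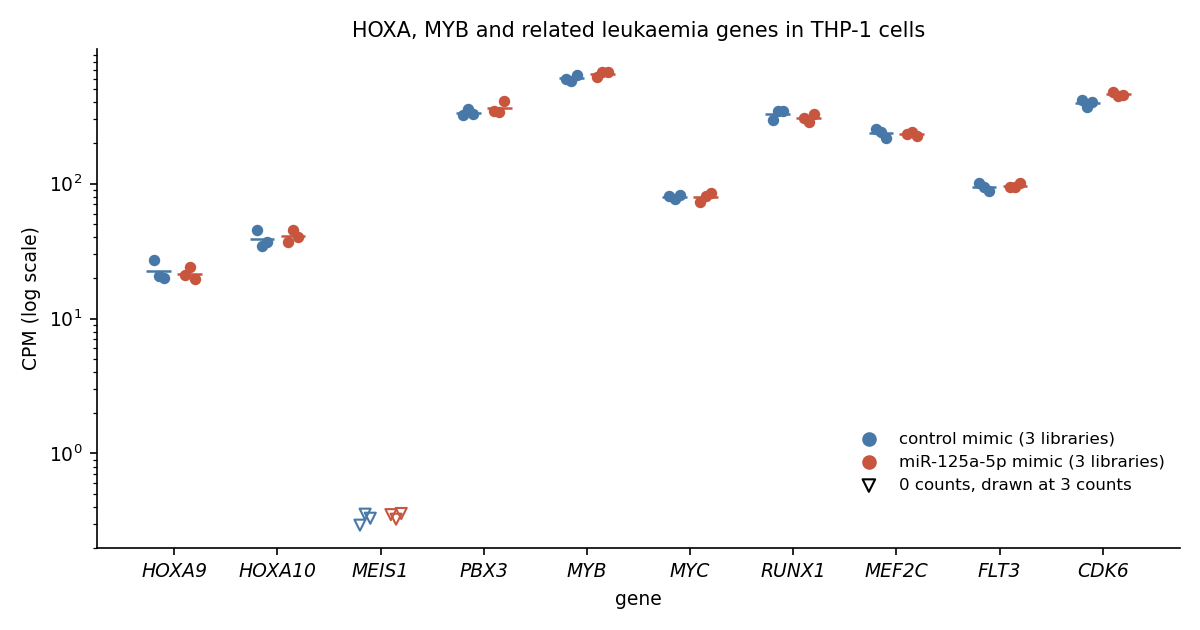
Level of the 10 leukaemia genes in each library, in CPM on a log axis; each point is 1 library, short lines are means of 3, blue is the control mimic and red the miR-125a-5p mimic. Open triangles mark MEIS1, which had 0 counts and is drawn at the level of 3 counts. The 2 colours overlap for every gene with counts except CDK6.

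HOXA9, the factor that drives self-renewal together with MEIS1, lies on the minus strand of chromosome 7 (27162435 to 27175180, GRCh38). It stood at 27.2, 20.6 and 19.99 CPM in control libraries 1, 2 and 3 and at 20.9, 24.0 and 19.6 CPM in miR-125a-5p libraries 1, 2 and 3. Control library 1 was the highest and the groups overlapped. The log2 fold change was -0.072 (SE 0.17, edgeR adjusted p = 0.972), with a 95% interval of the change from -24.9% to 20.6%. Without control library 1 it was 0.083, so even its sign rests on that library. HOXA9 had the fewest counts of the detected genes (164 to 277 per library) and the widest spread, with a coefficient of variation of 17.6% in control libraries, where counting error alone gives 7.09%.

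HOXA10, its neighbour on the same strand (27170591 to 27180261), was measured at 44.9, 34.3 and 36.9 CPM in control and at 36.9, 45.1 and 40.5 CPM in miR-125a-5p libraries. Control library 1 and miR-125a-5p library 2 were the high ones, as for HOXA9, and the groups overlapped. Its log2 fold change was 0.074 (SE 0.13, edgeR adjusted p = 0.966), and 0.19 without control library 1. Per length of exon, HOXA10 was above HOXA9 in 6 of 6 libraries, by a factor of 1.35 to 1.68. This ratio was 1.35, 1.36 and 1.51 in control and 1.44, 1.53 and 1.68 in miR-125a-5p libraries, and the groups overlapped.

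Reads of the 2 genes cannot be cleanly assigned. A separate row for the readthrough transcript HOXA10-HOXA9 held 270, 160 and 166 counts in control and 174, 217 and 150 counts in miR-125a-5p libraries, beside 277, 174, 181, 178, 221 and 164 for HOXA9 itself. Summed over libraries the readthrough row held 95.1% of the HOXA9 count, and its counts followed those of HOXA9 library by library. HOXA10-AS, an antisense transcript that shares exon bases with both, held 1649 counts, more than HOXA9 (1195) and fewer than HOXA10 (2149). The strand setting of the counting is not given in the sources used here. MIR196B, a microRNA gene that shares exon bases with HOXA9 on the same strand, held 14 counts, and its mature product is not measured by such libraries.

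The rest of the cluster showed which of its genes these cells use. HOX genes lie in the order in which they are used along the body axis, from the early to the late end of the cluster. HOXA9 and HOXA10, towards the late end, are those on the leukaemia list. In control libraries the levels per kilobase of exon (CPM per kb) were 7.46 ± 1.32 for HOXA9, 10.4 ± 1.49 for HOXA10, 9.51 ± 2.42 for HOXA11 and 2.93 ± 0.550 for HOXA13 (SD, n = 3). HOXA2 to HOXA7 lay far below, from 0.057 ± 0.099 for HOXA6 to 1.08 ± 0.196 for HOXA7. HOTTIP, a long noncoding RNA at the late end of the cluster known to bring KMT2A complexes to it, had 24.2, 31.5 and 32.1 CPM in control and 29.95, 29.999 and 28.1 CPM in miR-125a-5p libraries. Control library 1 was the highest for HOXA9 and HOXA11 (28.4 CPM, beside 18.4 to 21.1 CPM elsewhere), and the lowest for HOTTIP.

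Of the 16 listed neighbours in the cluster, 10 passed the filter on low counts and 0 were called. Their median log2 fold change was -0.083, beside 0.0011 for all tested genes, and it was 0.13 without control library 1. The 2 with the smallest p were HOXA11-AS, an antisense transcript of HOXA11 (3.45 ± 1.03 and 4.99 ± 1.27 CPM, edgeR adjusted p = 0.887), and HOTAIRM1, a noncoding RNA at the early end (2.28 ± 0.482 and 3.14 ± 1.03 CPM, edgeR adjusted p = 0.927). HOXA11 itself had a log2 fold change of -0.12 and HOTTIP of 0.0064. Without control library 1 both signs turned, to 0.11 for HOXA11 and -0.12 for HOTTIP. The antisense and sense genes of this cluster overlap and share the limit given for HOXA10-AS.

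**Figure D2:**
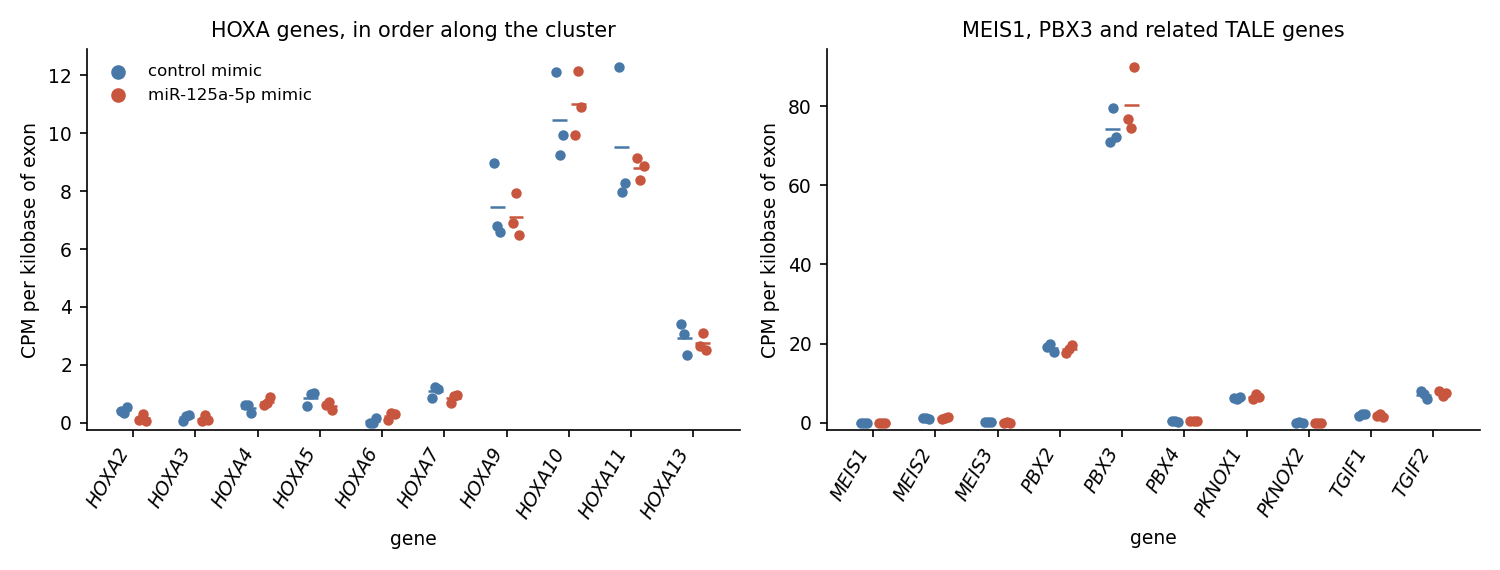
Levels in CPM per kilobase of exon along the HOXA cluster (left) and among the TALE homeodomain genes (right); each point is 1 library, short lines are means of 3, blue is control and red miR-125a-5p. HOXA9, HOXA10 and HOXA11 stand above the earlier HOXA genes shown in both groups, PBX3 stands above the other TALE genes shown and MEIS1 is at 0.

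MEIS1, the cofactor that gives the programme part of its name, was not detected. Its row held 0 counts in 6 of 6 libraries, of 53871984 counts in all. A count of 0 allows up to 3 counts, which is 0.294 to 0.359 CPM in a single library and 0.0558 CPM over the 6 together. No fold change can be given. HOXA9, the weakest of the detected genes, stood at 19.6 CPM or more in each library. Rows at 0 were not rare, with 12.8% of 19036 protein-coding rows and 19.3% of all rows. The overlapping antisense rows held 0 counts (MEIS1-AS2) and 2 counts (MEIS1-AS3, both in control library 1). The nearest protein-coding genes of the table on either side were detected, SPRED2 at 56.5 ± 4.23 CPM and ETAA1 at 12.01 ± 1.98 CPM in control libraries. For MEIS1 the table goes against the name of the programme, but the limit given covers counting error alone. Whether the 0 comes from the cells or from the annotation and counting behind the table was not tested.

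PBX3, the other TALE partner of HOXA9 on the list (chromosome 9, 125747345 to 125967377), was instead abundant. It was measured at 321, 360 and 327 CPM in control and at 348, 338 and 407 CPM in miR-125a-5p libraries. The groups overlapped, with miR-125a-5p library 3 the highest. This gave a log2 fold change of 0.12 (SE 0.093, edgeR adjusted p = 0.918), with an interval from -5.13% to 23.9%, and it was 0.026 without miR-125a-5p library 3.

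Among the other TALE genes, PBX2 was next per length at 18.9 ± 0.979 CPM per kb in control libraries, beside 74.2 ± 4.64 CPM per kb for PBX3. TGIF2 followed at 7.02 ± 0.936 CPM per kb and PKNOX1 at 6.26 ± 0.300 CPM per kb. TGIF2 is a repressor and PKNOX1 a relative of the MEIS proteins that also pairs with PBX. MEIS2, the closest relative of MEIS1 that was detected above the filter, had 11.3, 11.6 and 10.5 CPM in control and 11.04, 11.4 and 14.3 CPM in miR-125a-5p libraries, which overlap. MEIS3 held 15 counts in all, PBX4 46 and PKNOX2 1. Of the 9 listed genes 5 were tested and 0 called, with a median log2 fold change of 0.055. The smallest p in the list belonged to TGIF1 (16.3 ± 2.20 and 14.6 ± 2.47 CPM, edgeR adjusted p = 0.952) and MEIS2 (11.1 ± 0.571 and 12.2 ± 1.76 CPM, edgeR adjusted p = 0.959).

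MYB, which keeps immature blood cells dividing and on which these leukaemias depend, was the most abundant gene of the programme (chromosome 6, 135181315 to 135219173). Its level was 594, 578 and 639 CPM in control and 620, 672 and 667 CPM in miR-125a-5p libraries. The groups overlapped through control library 3, which lay above miR-125a-5p library 1. By the fit its log2 fold change was 0.11 (SE 0.085, edgeR adjusted p = 0.907), with an interval from -4.16% to 22.2%. With 4883 to 6184 counts per library, counting error was 1.33% and the coefficient of variation was 5.25% in control and 4.42% in miR-125a-5p libraries.

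MYC, a growth regulator encoded on chromosome 8, was less abundant than MYB. It stood at 81.4, 77.0 and 82.1 CPM in control and at 73.3, 81.5 and 85.3 CPM in miR-125a-5p libraries. The miR-125a-5p libraries held both the lowest and the highest value. MYC had a log2 fold change of -0.0027 (SE 0.11, edgeR adjusted p = 0.999), with an interval from -14.1% to 16.03%.

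In the list of the MYC network and of MYB partners, 18 of 19 genes were tested and 0 were called. The median log2 fold change was -0.0099, and -0.079 without control library 1. An unadjusted p under 0.05 was found for 5 of the 18, beside 5.92% of all tested genes, 2 of them with a negative and 3 with a positive fold change. MXD1 and MXD4, which compete with MYC for its partner MAX and repress the same sites, stood at 68.6 ± 5.65 and 56.9 ± 3.10 CPM (MXD1, edgeR adjusted p = 0.775) and at 7.65 ± 0.313 and 4.67 ± 0.510 CPM (MXD4, adjusted p = 0.675). Neither passed the test. ODC1, the polyamine synthesis enzyme that MYC activates, was at 233, 205 and 213 CPM in control and 265, 256 and 251 CPM in miR-125a-5p libraries (edgeR adjusted p = 0.662). Its groups did not overlap, but it did not pass either. NPM1, a nucleolar chaperone, had 674 ± 4.86 and 773 ± 115 CPM (edgeR adjusted p = 0.843). LDHA, lactate dehydrogenase A, had 1537 ± 87.9 and 1735 ± 74.9 CPM (edgeR adjusted p = 0.833). NCL, nucleolin, had the highest level per length of this list in control libraries and a log2 fold change of 0.0025, or -0.093 without control library 1. Over the list the groups of 5 of the 18 tested genes did not overlap, 2 above and 3 below. Of all tested genes, 5.31% lay above and 5.90% below in this way.

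RUNX1, the core-binding factor of blood stem cells, lies on the minus strand of chromosome 21 (34787801 to 36004667). It was measured at 294, 344 and 345 CPM in control and at 308, 287 and 326 CPM in miR-125a-5p libraries. Here control library 1 was low and lay among the miR-125a-5p libraries. The log2 fold change was -0.092 (SE 0.093, edgeR adjusted p = 0.939), and -0.17 without control library 1, where the adjusted p was 0.805.

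MEF2C, a MADS-box factor linked to aggressive KMT2A-rearranged disease, carries the full 8mer printed above (chromosome 5, minus strand, 88717117 to 88904257). It stood at 255, 240 and 217 CPM in control and at 233, 241 and 224 CPM in miR-125a-5p libraries. All 3 miR-125a-5p values lay within the range of the control values. For MEF2C the fitted log2 fold change was -0.027 (SE 0.092, edgeR adjusted p = 0.985), with an interval from -13.9% to 11.9%. Genes with an 8mer had a median log2 fold change of -0.065 and genes with no match 0.015, so a shift of the size of the whole class could not be told from 0 for a single gene with this SE. MEF2C-AS1, on the opposite strand, held 4.48% as many counts as MEF2C.

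In the list of core-binding factor and MEF2 relatives 9 of 11 genes were tested and 0 called, with 7 negative fold changes and a median of -0.079. MEF2A, a relative of MEF2C, was at 207, 198 and 178 CPM in control and at 174, 155 and 158 CPM in miR-125a-5p libraries. Every miR-125a-5p library lay below every control library, as in 5.90% of all tested genes, with a log2 fold change of -0.26 (SE 0.096, edgeR adjusted p = 0.655), and it did not pass. MEF2D, the most abundant of the list per length in control libraries, was at 513 ± 16.9 and 531 ± 58.4 CPM, and RUNX2, a bone and blood relative of RUNX1, at 281 ± 21.8 and 266 ± 12.1 CPM.

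FLT3, the receptor for FLT3 ligand and a marker of early progenitors, carries the 7mer-m8 printed above (chromosome 13, minus strand, 28003274 to 28100592). Its level was 101, 94.96 and 87.6 CPM in control and 94.5, 94.9 and 100.4 CPM in miR-125a-5p libraries. The 3 miR-125a-5p values lay within the range of the control values. The log2 fold change was 0.030 (SE 0.10, edgeR adjusted p = 0.985), with an interval from -11.7% to 18.04%. Genes whose best match was a 7mer-m8 had a median of -0.028.

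Of the 12 genes listed for FLT3 signalling and related receptors 10 were tested and 0 called, with a median of -0.016. KIT, the stem cell factor receptor, was scarce at 2.26, 1.30 and 2.76 CPM in control and 3.88, 3.59 and 4.55 CPM in miR-125a-5p libraries. All 3 miR-125a-5p libraries were above all controls, as in 5.31% of all tested genes, and the edgeR adjusted p was 0.799. KIT held 163 counts in all. The groups of 2 other genes in the list did not overlap, STAT5B (above, as in 5.31% of all tested genes) and CSF1R (below, as in 5.90%). CSF1R, the receptor for macrophage colony-stimulating factor, was far more abundant, at 792 ± 53.5 and 704 ± 28.97 CPM (log2 fold change -0.17, edgeR adjusted p = 0.843). GRB2 and CBL, an adaptor and a ubiquitin ligase of such receptors, had log2 fold changes of 0.032 and 0.094.

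CDK6, the kinase that lets progenitors pass from G1 into S phase and a direct target of the fusion, showed the largest difference of the 9 (chromosome 7, minus strand, 92604921 to 92836594). It was measured at 416, 371 and 404 CPM in control and at 479, 442 and 452 CPM in miR-125a-5p libraries. Every miR-125a-5p library lay above every control library, as in 5.31% of all tested genes. The log2 fold change was 0.21 (SE 0.087), with an interval from 1.82% to 30.5% higher and an unadjusted p of 0.0265. After adjustment over 14731 genes the edgeR p was 0.787, so CDK6 did not pass, nor did it under any of the alternatives run (adjusted p from 0.605 to 0.992). Its 3′ UTR holds only the 6-base core, and genes of that class had a median of 0.010. Without control library 2 the log2 fold change was 0.16 with an unadjusted edgeR p of 0.140, and without miR-125a-5p library 1 it was 0.17 with an unadjusted p of 0.103.

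The partners of CDK6 did not pass either: 14 of 16 were tested, 0 were called, 9 had a positive and 5 a negative fold change, and the median was 0.059. CDK4, the sister kinase, was at 115 ± 8.17 and 122 ± 5.91 CPM (edgeR adjusted p = 0.951). CDKN2D, an inhibitor of both kinases, was at 4.22, 8.999 and 3.76 CPM in control and at 8.22, 8.04 and 9.10 CPM in miR-125a-5p libraries, which overlap through control library 2 (edgeR adjusted p = 0.843). CCND1, cyclin D1, was at 30.6 ± 5.16 and 37.4 ± 6.12 CPM (edgeR adjusted p = 0.857). RB1, the substrate whose phosphorylation releases E2F factors, had a log2 fold change of 0.015. CDKN1A, an inhibitor driven by p53, ranged widely in control libraries, at 228 ± 63.1 CPM, and stood at 208 ± 18.0 CPM after the mimic. Its log2 fold change was -0.13, and 0.12 without control library 1. The inhibitor genes CDKN2A and CDKN2B held 0 counts in every library. THP-1 cells are known to carry a deletion of that locus.

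**Figure D3:**
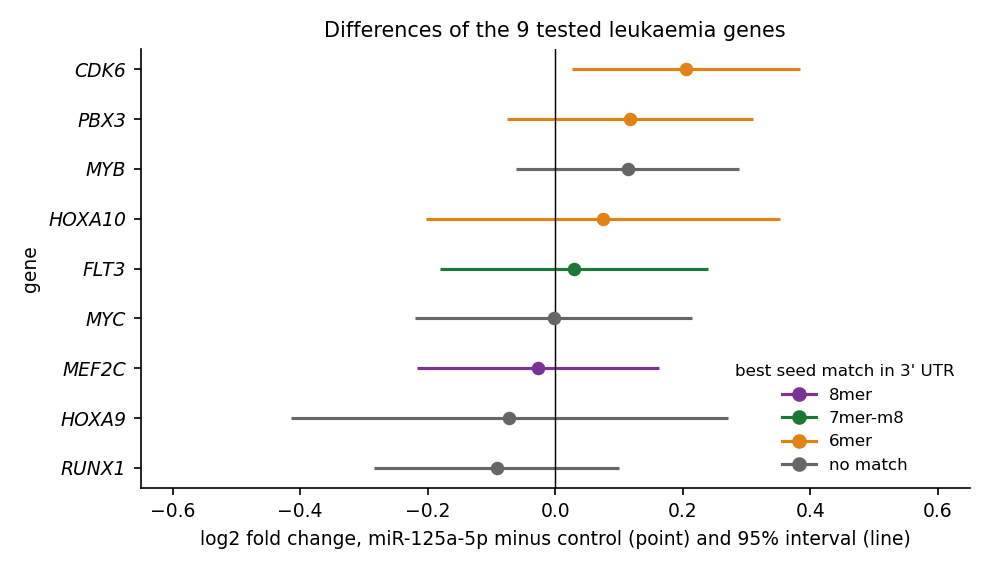
Log2 fold change of the 9 detected leukaemia genes (points) with 95% intervals from edgeR (lines), coloured by the best seed match in the longest 3′ UTR. CDK6 has the one interval that leaves out 0 before adjustment, and genes with and without a match are spread on both sides of 0.

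The upstream machinery and the reported targets of the programme were read the same way. All 20 genes listed for the fusion complex were tested and 0 were called, with a median log2 fold change of -0.014. KMT2A was at 339 ± 37.2 and 334 ± 15.4 CPM and MLLT3 at 13.97 ± 1.69 and 11.9 ± 1.82 CPM. Counts per gene do not separate reads of the fusion transcript from those of the intact genes. AFF1 and LEO1, an elongation factor and a subunit of the PAF1 complex, were among the 3 most abundant of the list per length in control libraries.

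In that list 2 of 20 genes had an unadjusted p under 0.05, beside 5.92% of all tested genes, and the groups of 3 did not overlap, beside 11.2%. The third is CDK9, the elongation kinase, at 18.2 ± 1.84 and 14.9 ± 2.09 CPM (log2 fold change -0.29, edgeR adjusted p = 0.884). DOT1L, the methyltransferase through which the fusion maintains HOXA transcription, was at 82.7, 88.2 and 86.9 CPM in control and at 70.1, 68.6 and 69.7 CPM in miR-125a-5p libraries. The 2 groups were well apart with little spread within either, yet the edgeR adjusted p for its log2 fold change of -0.31 (SE 0.10) was 0.587. SUPT16H, a subunit of the histone chaperone FACT, was at 201, 200 and 214 CPM in control and at 250, 273 and 244 CPM in miR-125a-5p libraries. It differed in the other direction, with a log2 fold change of 0.32 (SE 0.090, edgeR adjusted p = 0.437), and did not pass.

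Of 20 reported direct targets of the fusion or of HOXA9 and MEIS1, 15 were tested and 0 called, 7 positive and 8 negative. The median was -0.015. It was 0.019 without control library 1, -0.046 without control library 3 and 0.068 without miR-125a-5p library 3. The most abundant per length in control libraries were LMO2, a bridging protein of blood stem cells (282 ± 33.3 and 286 ± 43.1 CPM), ZEB2, a zinc-finger repressor (999 ± 34.7 and 963 ± 29.7 CPM), and JMJD1C, a demethylase relative (414 ± 21.2 and 393 ± 40.8 CPM). The 2 with the smallest p were IGF2BP2, an RNA-binding protein (log2 fold change -0.15, edgeR adjusted p = 0.898), and GFI1, a transcriptional repressor active in granulocyte precursors (0.13, edgeR adjusted p = 0.906). The stem cell surface genes CD34 and PROM1 held 5 and 2 counts in all 6 libraries.

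**Figure D4:**
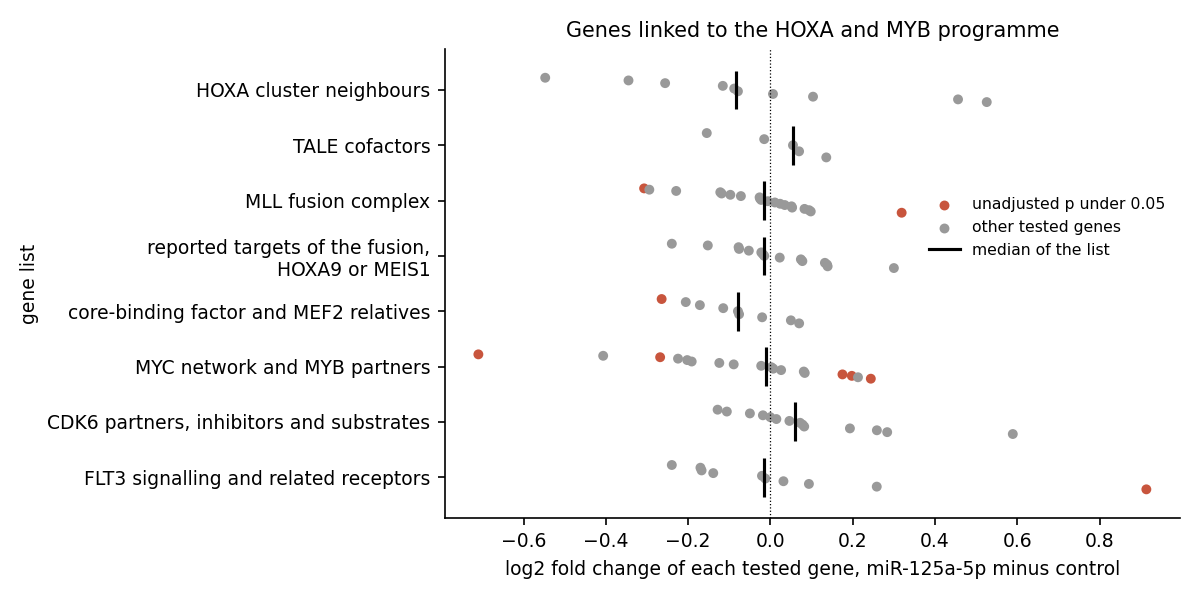
Log2 fold change, miR-125a-5p over control, of every tested gene in 8 lists of partners and targets; each point is 1 gene, black bars are list medians and red points have an unadjusted p under 0.05. No point passed after adjustment over all genes, and the list medians lie between -0.083 and 0.059.

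Set against each other per length in control libraries, the detected genes spanned from 7.46 ± 1.32 CPM per kb for HOXA9 to 110 ± 5.77 CPM per kb for MYB. MYB was at the 98.1st percentile of tested genes on this scale, PBX3 at 96.9, CDK6 at 91.1, MYC at 88.5, HOXA10 at 69.3 and HOXA9 at 60.3. MYB was above PBX3, PBX3 above CDK6, CDK6 above MYC and MYC above FLT3 in 6 of 6 libraries. FLT3 (22.7 ± 1.65), RUNX1 (21.0 ± 1.89) and MEF2C (20.2 ± 1.63 CPM per kb) could not be ordered, since FLT3 was above RUNX1 in 5 libraries and RUNX1 above MEF2C in 3. HOXA10 (10.4 ± 1.49) and HOXA9 came below all of these in 6 of 6 libraries. The order in the middle depends on the length used: with the longest transcript in place of all annotated exons, RUNX1 was at 45.0 CPM per kb, above CDK6 (34.2) and MYC (33.9), while MYB and PBX3 were again highest and HOXA10 and HOXA9 lowest.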

How the data were processed

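The deposited file is a single table of whole-number, unnormalized counts per NCBI gene identifier, made by the authors for the 6 libraries. The submitters' processing notes list bcl2fastq, TopHat, edgeR and the build hg19. Versions, counting tool, annotation and strand setting were not given in the sources used here. Identifiers were named through RefSeq for 26204 rows (99.5%), and columns were matched to libraries by description.

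The test on counts used R 4.3.3 and edgeR 4.0.16 (filterByExpr, which left 14731 of the 21274 rows that held a count, trimmed mean of M-values, glmQLFit and glmQLFTest, no covariate, Benjamini-Hochberg threshold 0.05). Its steps were first tested on simulated data with planted log2 changes of 1 or 2 in size. Smaller planted changes, of the size seen for the leukaemia genes, were not simulated. The SE is the absolute log2 fold change divided by the square root of F. Alternatives included DESeq2 1.42.0 and limma voom 3.58.1. Lengths and 3′ UTRs of at least 20 bases came from GENCODE 29 on GRCh38, not the authors' build. Level per length was planned as TPM, but 1 row of 87 bases (MTRNR2L2) took 39.3% to 51.3% of all TPM, so CPM per kilobase of exon was used, a choice made after seeing the data. Genes, lists and tests were chosen with earlier results of these data known. Named from each list of partners and targets were genes with an unadjusted p under 0.05, or else the 2 with the smallest p, and the 3 with the highest level per length in control libraries. Other names (HOXA6, HOXA7, HOXA13, KMT2A, MLLT3, CDK9, CDKN1B, STAT5B, CD34, PROM1, rows at 0, TALE genes below the filter and marker genes) were chosen after their values were seen. Some items are not reported here. The floor of 3 counts covers counting error only.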

Additional observations from a re-analysis of the deposited data

How the results depend on the processing

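Each of the 9 detected leukaemia genes was recomputed under 14 alternatives: other scalings, count filters and tests, each library left out, and the replicate number as a block. None of the 126 values passed the threshold (smallest adjusted p 0.605), and 116 had the same direction as reported. The other 10, all of genes near 0, turned. MYC was at 0.0050 with upper quartile factors. With 1 library left out, log2 fold changes ran from -0.16 to 0.083 for HOXA9, from -0.0054 to 0.19 for HOXA10, from -0.053 to 0.055 for MYC, from -0.023 to 0.079 for FLT3 and from -0.088 to 0.025 for MEF2C. The signs turned without control library 1 (HOXA9, MEF2C, MYC), control library 2 (HOXA10), control library 3 (MYC, FLT3) and miR-125a-5p library 1 (MYC), 2 (HOXA10) or 3 (FLT3). The number of genes called over the whole table, 0 higher and 4 lower, was 11 higher and 41 lower with no count filter and 2 higher and 11 lower by DESeq2. It ran from 0 to 2 higher and from 3 to 14 lower with 1 library left out (14 lower without control library 3, 2 higher without miR-125a-5p library 3). The cause was not tested. With the replicate block 0 were higher and 9 lower, none of them a leukaemia gene. Same-numbered libraries had correlations of 0.056, 0.014 and -0.016 in their deviations from the group means. Control library 1 correlated best with its own number, and control libraries 2 and 3 with another. Correlations this near 0 cannot tell whether same-numbered libraries shared more than a number. In a check added after the data were seen, 4 of the partner genes with a printed fold change turned sign without control library 1 (HOXA11 0.11, HOTTIP -0.12, NCL -0.093, CDKN1A 0.12). MEIS1 gave no value under any alternative. Levels per length moved by more than their spread for 8 of the 9 genes with the longest transcript as length and for 9 on the TPM scale. TPM is another unit, on which all 9 were higher by a similar factor (HOXA9 7.46 and 16.1, MYB 110 and 240). The count of 9 follows from that unit. Of 72 list medians under other scalings or without a library, 8 moved by more than the spread between replicates.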
